A study of Mus musculus with 13 samples.

Results

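Axon guidance ligands and receptors were examined in RNA from mouse ventral tegmental area (VTA) punches; dopamine neurons of this midbrain area send axons to the striatum and cortex. The genes were those whose symbols name a netrin, a netrin receptor (Dcc or an Unc5), a Slit, a Robo, a semaphorin of classes 3 to 7, a neuropilin, a plexin, an ephrin or an Eph receptor, with 10 or more normalized counts in at least 2 of the 13 libraries. Such a symbol was carried by 70 of the 26264 genes listed, and 68 of these also met the count minimum, out of 17755 genes that met it in all. The other two, Efna4 and Ntn5, reached at most 11.1 and 15.7 normalized counts and were not tested. The 68 are 3 netrins, 5 netrin receptors, 3 Slits, 4 Robo receptors, 20 semaphorins, 2 neuropilins, 9 plexins, 7 ephrins, 14 Eph receptors and 1 antisense RNA, Plxna4os1, whose symbol matches the plexin pattern but which encodes no plexin.

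Mice of the strain given as C57BlJ/6 received a virus at postnatal day 14, carrying either green fluorescent protein (GFP) or Setd7, a lysine methyltransferase that modifies histone H3 and other proteins. As adults they either met social defeat stress, in which an aggressive mouse repeatedly attacks the test mouse, or did not. The groups are called GFP control (n = 3, replicate 1 female, replicates 2 and 3 male), GFP defeat (n = 4, replicates 1 and 2 female), Setd7 control (n = 4, replicates 1 and 2 female) and Setd7 defeat (n = 2, replicate 1 female). The promoter of the virus, the cells it infected and the age at collection are not given in the sources used here, and the labels do not say that each library is a separate animal, so p-values measure the spread between these libraries. Values are given in replicate order within each group, as normalized counts (reads divided by a size factor of the library).

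Axon guidance proteins steer growing axons by attraction or repulsion. Netrins attract axons through DCC and repel them through UNC5 receptors, Slits repel through Robo receptors, most class 3 semaphorins act through a neuropilin and plexin complex, and ephrins and Eph receptors signal in both directions between touching cells. Dopamine axons use several of these pairs during development, and in the adult brain many of the same proteins are made at synapses, in glia and in blood vessels.

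Promoters of the genes that separated the Setd7 control from the GFP control libraries are shown first, because a histone methyltransferase was the agent tested; no chromatin data were used here. In this comparison every Setd7 control library lay above every GFP control library for 2 of the 68 genes (Plxna4 and Robo2), as for 4.17% of all genes tested, and below for 3 (Efna5, Epha1 and Plxnd1), as for 4.09%. These were 2.94 and 4.41% of the guidance genes, no more than about the shares of all genes. The 250 bases upstream of the start site are given for the 4 of these 5 that are in the RefSeq promoter table (mouse build GRCm38.p6), all on the minus strand. They are chr6:42373269-42373518 (Epha1), chr17:62881318-62881567 (Efna5), chr6:115995006-115995255 (Plxnd1) and chr16:74411826-74412075 (Robo2). None of these windows holds an annotated exon in GENCODE M21, and for Robo2 the window is the one of 3 whose start lies in an annotated Robo2 transcript. Capitals mark GGGCGG or its reverse complement CCGCCC, the core of the GC box bound by Sp1-type factors.
Epha1: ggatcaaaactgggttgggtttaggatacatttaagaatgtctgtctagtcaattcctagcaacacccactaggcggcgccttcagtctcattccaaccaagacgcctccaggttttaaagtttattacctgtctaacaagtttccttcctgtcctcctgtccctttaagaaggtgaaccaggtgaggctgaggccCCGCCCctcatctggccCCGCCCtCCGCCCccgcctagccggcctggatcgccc
Efna5: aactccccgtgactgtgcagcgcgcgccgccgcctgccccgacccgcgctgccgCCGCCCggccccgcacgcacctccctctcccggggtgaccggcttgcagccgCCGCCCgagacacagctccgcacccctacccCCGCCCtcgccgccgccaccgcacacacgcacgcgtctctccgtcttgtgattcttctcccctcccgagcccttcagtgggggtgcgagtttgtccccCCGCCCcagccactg
Plxnd1: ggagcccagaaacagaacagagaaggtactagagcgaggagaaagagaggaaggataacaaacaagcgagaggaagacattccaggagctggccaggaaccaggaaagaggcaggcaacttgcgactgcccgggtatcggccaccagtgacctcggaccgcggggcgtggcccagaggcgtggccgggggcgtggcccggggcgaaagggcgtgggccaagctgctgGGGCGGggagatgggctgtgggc
Robo2: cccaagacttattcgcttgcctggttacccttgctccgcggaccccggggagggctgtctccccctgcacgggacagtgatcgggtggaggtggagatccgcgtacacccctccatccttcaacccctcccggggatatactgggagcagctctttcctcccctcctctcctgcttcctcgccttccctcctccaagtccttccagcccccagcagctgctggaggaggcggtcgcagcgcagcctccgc
The Epha1 window holds 3 GC boxes and 9 CpG sites, Efna5 has 4 and 32, Plxnd1 has 1 and 16, and Robo2 has 0 and 14. Across the 73 windows of the 57 guidance genes in the table, 72.6% held GGGCGG on either strand, against 32.7% of all 32851 windows of that length. TATAAA was in 2.74% against 12.4%, and CCAAT in 26.0% against 33.8%, again on either strand. The median CpG count was 16 in the guidance windows and 6 in all windows, with median GC contents of 64.4 and 52.4%. Many of the guidance windows, unlike the 4 printed, hold an annotated exon, often of the same gene, so they are not purely upstream sequence. Exons in the set of all windows were not looked up. Genes with several windows, such as Sema4a, count more than once. The guidance genes met the count minimum, whereas the set of all windows covers 27025 genes whatever their level here. Windows of other genes that met the minimum were not compared, so these gaps may not be particular to guidance genes. These letter matches describe the windows and do not show that a factor binds there.

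Libraries held 26.5 to 50.8 M reads in genes (M, mega), and Setd7 stood at 10888 to 14538 normalized counts in the 7 GFP libraries and 28587 to 158681 in the 6 Setd7 libraries. The 28587 was in Setd7 control replicate 4, and the other Setd7 libraries held 81302 or more. Setd7 control replicate 4 also held the highest Ntn1 (6634) and Robo2 (5681) of all 13 libraries, and the highest Epha1 (45.9) of the Setd7 libraries. All 17 dopamine neuron markers listed were detected in every library. Their sum was 89493 to 168640 in 10 libraries and 36092 to 40170 in GFP defeat replicate 1 and the 2 male GFP controls (replicates 2 and 3). Th, which encodes the enzyme that sets the rate of dopamine synthesis, stood at 2539, 3392 and 2508 in those 3 libraries and at 9760 to 19111 elsewhere. Tcf7l2, a transcription factor abundant in thalamus, stood at 9009 and 9559 in GFP control replicates 2 and 3 and at 6575 in GFP defeat replicate 4, against 949 to 1869 elsewhere. The thalamus markers Prkcd, Synpo2 and Gbx2 stood at 4956, 4022 and 656 in GFP control replicate 2. They stood at 1410, 1720 and 463 in GFP defeat replicate 4. In GFP control replicate 3 they were at 394, 403 and 34.5, within the range of the libraries not rich in Tcf7l2. So were Lef1, Ramp3, Plekhg1, Tnnt1 and Ntng1 there, while Rgs16 was slightly above that range (403 against at most 346). The summed meningeal fibroblast markers reached 17746 in Setd7 defeat replicate 1, against 3790 to 5575 in the other 12 libraries. Summed microglia markers reached 23123 in Setd7 control replicate 4, against 8989 to 14116 in the other 12. In tissue punches, fewer cells of a type and less RNA per cell cannot be told apart.

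None of the 68 guidance genes passed adjusted p under 0.05 in any of the 8 comparisons by limma or edgeR. None passed by DESeq2 where it gave an adjusted p, which it did not for 6 of them for Setd7 without defeat (Efna1, Epha1, Epha2, Plxna4os1, Robo3 and Sema3b) and 1 for defeat with GFP (Plxna4os1). With limma the share of all tested genes that passed was 0% for Setd7 without defeat, Setd7 after defeat, defeat with GFP, defeat with Setd7, their interaction and the averaged defeat effect, 0.00563% for the averaged Setd7 effect and 0.062% for sex. With edgeR it was 0% for the same 6 comparisons, 0.00563% for averaged Setd7 and 0.0563% for sex. With DESeq2 it was 0.197% for Setd7 without defeat, 0.479% for defeat with GFP, 0.0338% for Setd7 after defeat, 0.0394% for defeat with Setd7, 0.00563% for the interaction, 0.0394% for averaged Setd7, 0.0451% for averaged defeat and 0.0957% for sex. The genes below are therefore described by their values, differences and intervals, and those with an unadjusted p under 0.05 are counted beside the share of all genes that reach it.

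The guidance genes together held 0.429 to 0.477% of all normalized counts in a library. Semaphorins made up 26.4 to 30.9% of that sum and plexins 22.1 to 24.8%. Netrins made up 1.77 to 4.60%, the widest relative range of any family apart from the antisense RNA. Levels can be compared between genes only per length, so normalized counts were divided by kilobases of exon (GENCODE M21). All annotated exons of a gene were merged, as for Slit2 at 25.4 kilobases. Merged exons can be longer than any single transcript, so the order of levels depends in part on the annotation. Efnb3, a transmembrane ephrin, had the highest level, at 2976 ± 297 normalized counts per kilobase (SD over the 13 libraries). Next came Sema7a, a membrane-anchored semaphorin, at 1346 ± 377, Sema6b at 1121 ± 93.5 and Sema6d at 935 ± 121. Sema6b and Sema7a lay within their combined spread, and so did Sema6b and Sema6d. Plxna1 (791 ± 76.1), Plxna4 (719 ± 46.8) and Ntn1 (715 ± 238) followed, and these neighbours did not differ beyond their spread. At the low end stood Epha2 (15.2 ± 3.57), Epha1 (12.9 ± 5.60), Plxna4os1 (10.9 ± 4.98) and Robo3 (6.99 ± 4.34), whose ranges overlap.

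**Figure D1:**
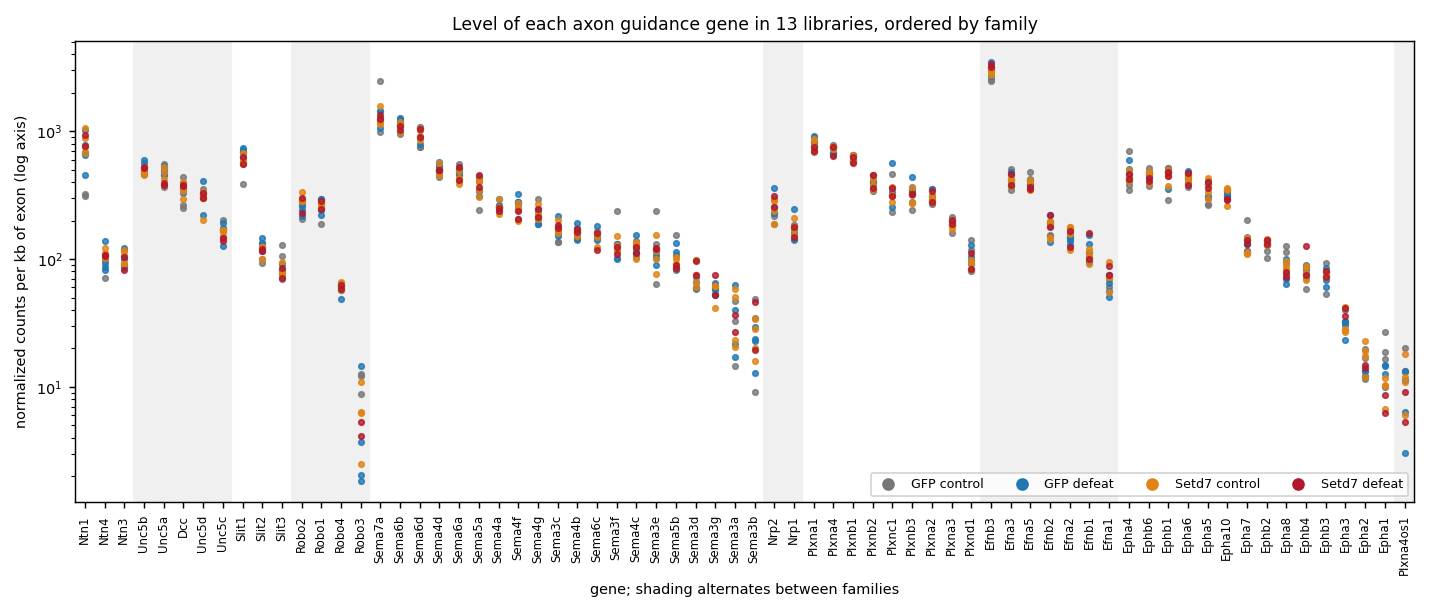
Normalized counts per kilobase of exon (log axis) for each of the 68 genes, grouped by family and ordered by mean level, with 1 point per library coloured by group. Efnb3 lies highest at 2976 per kilobase on average, Robo3 lowest at 6.99, and the points of most genes fall in a narrow band that holds all 4 groups.

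The median spread of the guidance genes across libraries was close to that of genes at large, which have lower counts. The median SD of log2(normalized count + 1) was 0.21 over the 68 genes and 0.19 over all tested genes. The upper quartile was 0.26 against 0.42, and the median of the mean normalized count was 1616 against 520. The genes were not matched by level. Plxnb1, a semaphorin 4 receptor, had the smallest SD, with 1.17-fold between its lowest and highest library. Robo3, a divergent Robo receptor of commissural axons, varied most, with 7.96-fold between 12.5 and 99.4 normalized counts. GFP control replicates 2 and 3 held the highest or lowest value of the 13 libraries for 33.8 and 35.3% of the guidance genes, against 17.3 and 24.2% of all tested genes. Setd7 control replicate 1 was at neither end for any of them. In GFP control replicate 3, Sema7a stood at 8172 normalized counts (3242 to 5218 elsewhere), Sema3e at 2213 (593 to 1439 elsewhere) and Sema3f at 1245 (522 to 784 elsewhere). The excitatory neuron marker Slc17a7 was also highest there, at 5064 (1823 in GFP control replicate 2 and 97.9 to 962 elsewhere). The other excitatory markers, Slc17a6 (13729) and Slc17a8 (1504), lay within the range of the other libraries. The part of Slc17a7 cells in these semaphorin values was not tested.

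**Figure D2:**
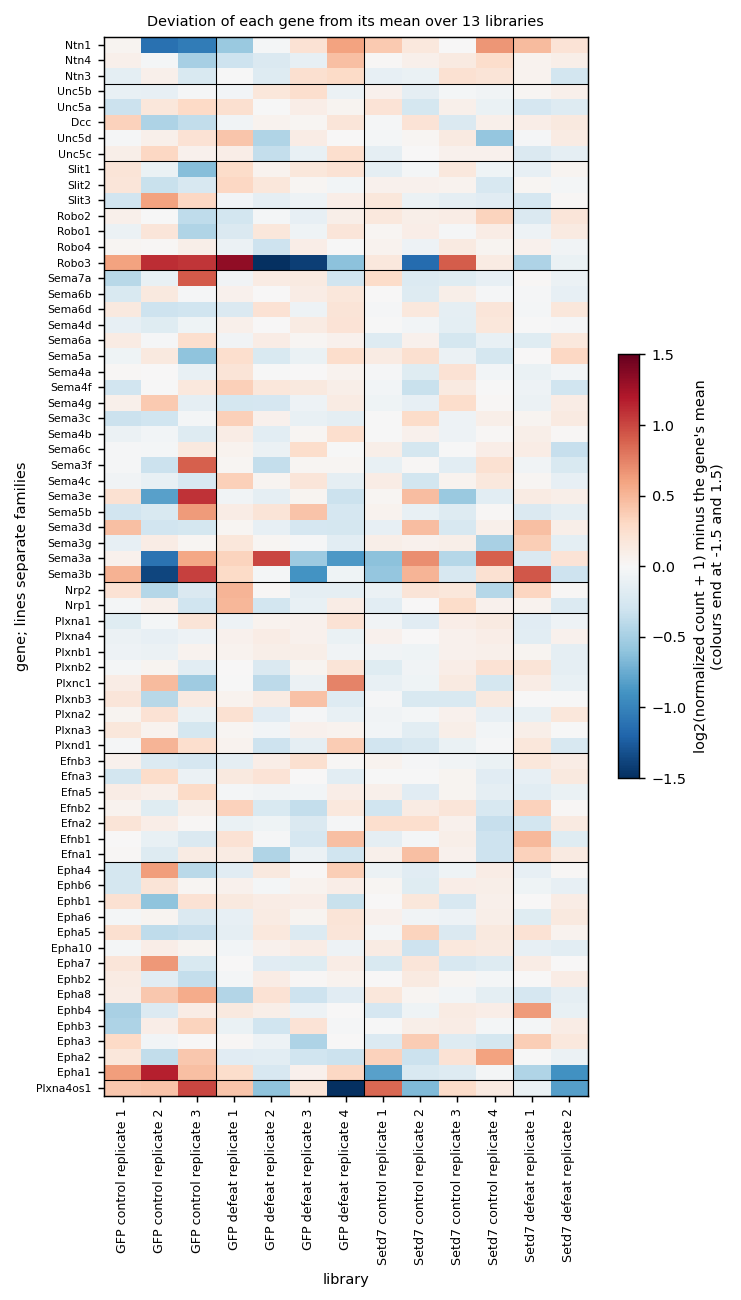
Deviation of log2(normalized count + 1) from each gene's mean over 13 libraries (rows, genes by family; columns, libraries by group; blue lower, red higher, colours ending at 1.5 either way). Strong colours gather in Ntn1, Robo3, Sema3a, Sema3b, Sema3e, Epha1 and the antisense RNA Plxna4os1, and Ntn1 is lowest in GFP control replicates 2 and 3.

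Ntn1, the secreted netrin that guides midline and dopamine axons, had the largest positive difference of any guidance gene between Setd7 control and GFP control. It stood at 4324, 1940 and 2031 normalized counts in GFP control, at 2867, 4123, 4873 and 6383 in GFP defeat, at 5536, 4702, 4239 and 6634 in Setd7 control and at 5833 and 4839 in Setd7 defeat. GFP control replicate 1 lay among the Setd7 control libraries, so the groups overlap, and the 2 male GFP control libraries were lowest of all. Means were 2765 ± 1351 (SD, n = 3) in GFP control and 5278 ± 1051 (n = 4) in Setd7 control, a log2 fold change of 1.01 ± 0.30 (SE; 95% interval 0.37 to 1.65; limma adjusted p = 0.539). For defeat with GFP the log2 fold change was 0.76 ± 0.30 (limma adjusted p = 0.485), 0.03 ± 0.33 for defeat with Setd7 and 0.28 ± 0.33 for Setd7 after defeat.

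The 3 lowest Ntn1 values were in the 3 libraries with the lowest Th, and the highest pair, 6634 and 6383, were in those with the highest Th (19111 and 17550). All 17 dopamine neuron markers had a positive log2 fold change for Setd7 without defeat (median 1.02), likewise for defeat with GFP (median 0.83), and 0 passed the adjusted threshold. Their summed level was 36092 to 98967 in GFP control, 40170 to 159077 in GFP defeat, 89493 to 168640 in Setd7 control and 99977 to 119294 in Setd7 defeat. Leaving out 1 library at a time gave Ntn1 log2 fold changes of 0.81 to 1.51 for Setd7 without defeat. For defeat with GFP they ranged from 0.53 to 1.26. Both were highest without GFP control replicate 1. The Ntn1 log2 fold change without the 3 libraries low in Th was 0.22 for Setd7 without defeat and 0.16 in the comparison of defeat with GFP. It was 0.21 and -0.20 without the 3 libraries rich in Tcf7l2. GFP control is then replicate 1 alone, whose spread limma takes from the other groups. Ntn4, a basement membrane netrin, and Ntn3 ranged from 268 to 516 and from 421 to 624 normalized counts.

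**Figure D3:**
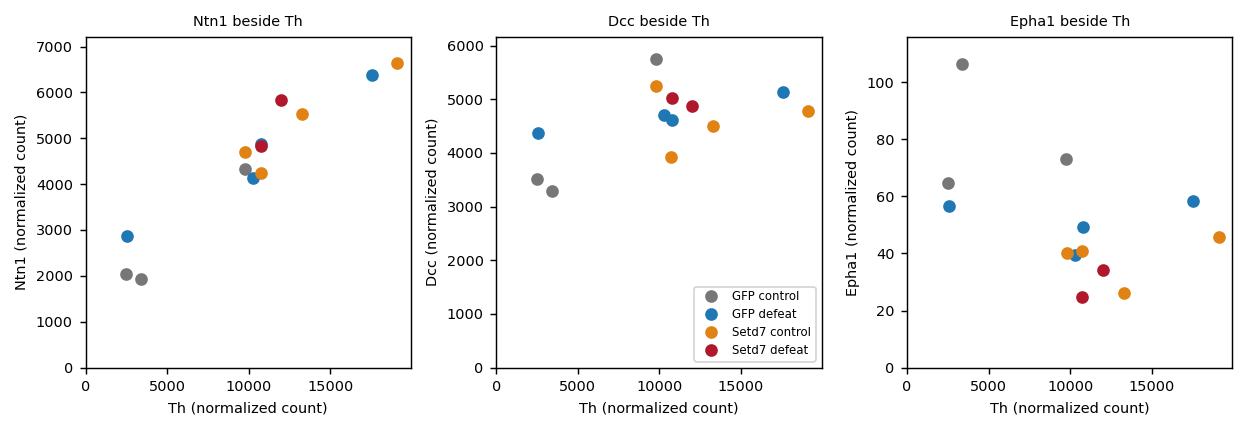
Normalized counts of Ntn1, Dcc and Epha1 (vertical axes) against Th (horizontal axis), 1 point per library coloured by group. The 3 libraries with Th at 3392 or less hold the 3 lowest Ntn1 values, whereas the Setd7 libraries, all at 45.9 or less for Epha1, have Th between 9801 and 19111 and lie low in that panel.

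Dcc, the netrin receptor that mediates attraction and is abundant in dopamine neurons, showed a smaller range. It stood at 5746, 3282 and 3509 normalized counts in GFP control, at 4365, 4703, 4615 and 5136 in GFP defeat, at 4500, 5242, 3916 and 4772 in Setd7 control and at 4870 and 5029 in Setd7 defeat. GFP control held both the highest library and the lowest pair. The log2 fold change was 0.15 ± 0.15 for Setd7 without defeat, with a 95% interval of -0.17 to 0.47, and 0.19 ± 0.15 for defeat with GFP (limma adjusted p = 0.818 and 0.731). They became -0.30 and -0.22 without the 3 libraries low in Th. As in every fit without those 3, GFP control is then replicate 1 alone, here the library with the highest Dcc. Unc5a, a repulsive netrin receptor, stood at 1514, 2126 and 2317 in GFP control, at 2222, 1885, 2027 and 1943 in GFP defeat, at 2174, 1577, 1982 and 1762 in Setd7 control and at 1589 and 1646 in Setd7 defeat. Both Setd7 defeat values lay below all 4 GFP defeat values, and the log2 fold change there was -0.32 ± 0.15 (limma adjusted p = 0.990). Unc5c, also repulsive, stood at 3286, 3852 and 3231, at 3330, 2416, 2861 and 3680, at 2826, 3111, 3242 and 3248, and at 2672 and 2818 in the same order of groups. Its Setd7 defeat libraries lay below all Setd7 control libraries, with a log2 fold change of -0.18 ± 0.13 for defeat with Setd7. Unc5b and Unc5d ranged from 2857 to 3734 and from 1865 to 3745.

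Among the Slits, repellents read by Robo receptors, Slit1 stood at 4106, 3349 and 2306 normalized counts in GFP control, at 4348, 3712, 4043 and 4190 in GFP defeat, at 3263, 3521, 3995 and 3431 in Setd7 control and at 3296 and 3691 in Setd7 defeat. The log2 fold change for defeat with GFP was 0.35 ± 0.15 (limma adjusted p = 0.508). GFP control replicate 1 lay within the GFP defeat range, and without the 3 libraries low in Th the difference was -0.14. Slit2 stood at 3400, 2379 and 2545 in GFP control, at 3733, 3387, 3063 and 2923 in GFP defeat, at 3141, 3152, 3116 and 2547 in Setd7 control and at 3058 and 2949 in Setd7 defeat. For defeat with GFP it differed by 0.21 ± 0.09 on the log2 scale (limma adjusted p = 0.502), and by -0.03 without those 3 libraries. Slit3, the least abundant Slit per kilobase, stood at 421, 786 and 641, at 502, 470, 487 and 552, at 580, 484, 469 and 457, and at 433 and 521 in the same order, highest in the 2 Tcf7l2-rich GFP controls.

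Robo2, a Slit receptor of forebrain and midbrain axons, was among the genes whose control groups did not overlap. It stood at 4739, 4483 and 3463 normalized counts in GFP control, at 3712, 4428, 4135 and 4789 in GFP defeat, at 5034, 4797, 4860 and 5681 in Setd7 control and at 3891 and 5130 in Setd7 defeat. The gap between the highest GFP control and the lowest Setd7 control library was 4739 to 4797. For Setd7 without defeat the log2 fold change was 0.29 ± 0.12 (limma adjusted p = 0.609), and 0.03 without the 3 libraries low in Th. Robo1, its close relative, stood at 4003, 4834 and 3114 in GFP control, at 3677, 4774, 4057 and 4850 in GFP defeat, at 4358, 4561, 4206 and 4590 in Setd7 control and at 4049 and 4689 in Setd7 defeat, with all groups overlapping. Robo4, the endothelial Robo, kept to 259 to 352. Robo3 stood at 60.0, 85.7 and 82.9 in GFP control, at 99.4, 12.5, 14.1 and 25.2 in GFP defeat, at 43.7, 17.1, 74.4 and 42.8 in Setd7 control and at 28.1 and 36.3 in Setd7 defeat. Its GFP defeat group holds both the highest value of all and the 2 lowest, with recovered reads of 12 to 133 per library. For defeat with GFP limma gave a log2 fold change of -1.46 ± 0.63 (adjusted p = 0.512), while edgeR gave -0.97 and DESeq2 -0.99. Without the 3 libraries low in Th limma gave -2.29.

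Of the 20 semaphorins, class 3 members are secreted and the others sit in the membrane. Sema3a, a repellent that signals through neuropilin 1, stood at 454, 201 and 651 normalized counts in GFP control, at 549, 871, 298 and 239 in GFP defeat, at 284, 704, 323 and 812 in Setd7 control and at 374 and 502 in Setd7 defeat. Sema3b stood at 166, 43.5 and 234, at 140, 112, 61.1 and 110, at 76.4, 163, 97.1 and 135, and at 221 and 92.6 in the same order. For both, all groups overlapped. Sema3f, a ligand of neuropilin 2, stood at 662, 533 and 1245 in GFP control, at 683, 522, 684 and 684 in GFP defeat, at 618, 675, 600 and 784 in Setd7 control and at 642 and 571 in Setd7 defeat, with 1 high library. Sema3d stood at 841, 500 and 509 in GFP control, at 625, 563, 516 and 510 in GFP defeat, at 563, 843, 520 and 647 in Setd7 control and at 836 and 650 in Setd7 defeat. Both Setd7 defeat values exceeded all GFP defeat values, with a log2 fold change of 0.42 ± 0.17 (limma adjusted p = 0.990). Leaving out 1 library at a time kept that difference between 0.36 and 0.45.

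Sema4d, a ligand of plexin B1, stood at 3522, 3392 and 3667 normalized counts in GFP control, at 4043, 3839, 4164 and 4408 in GFP defeat, at 3810, 3724, 3469 and 4314 in Setd7 control and at 3826 and 3792 in Setd7 defeat. All 4 GFP defeat libraries lay above the 3 GFP controls. The log2 fold change for defeat with GFP was 0.23 ± 0.07 (95% interval 0.07 to 0.39; limma adjusted p = 0.423), and 0.19 without the 3 libraries low in Th. Oligodendrocyte markers, whose cells also make Sema4d, had positive differences for 10 of 11 in that comparison (median 0.22), with sums of 375520 to 472997 in GFP control and 438727 to 574482 in GFP defeat, and none at 0. Oligodendrocyte precursor markers were positive for 6 of 6 (median 0.23), with sums of 17621 to 20354 in GFP control and 20985 to 23048 in GFP defeat, which do not overlap, and none at 0. The part of either list in the Sema4d difference was not tested. Sema4f stood at 1088, 1320 and 1489 in GFP control, at 1698, 1491, 1466 and 1417 in GFP defeat, at 1288, 1057, 1458 and 1329 in Setd7 control and at 1259 and 1085 in Setd7 defeat. Its Setd7 defeat libraries lay below the GFP defeat libraries, with a log2 fold change of -0.37 ± 0.14 (limma adjusted p = 0.990), which was -0.55 without Setd7 defeat replicate 1 and -0.20 without replicate 2.

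Neuropilins bind class 3 semaphorins and pair with plexins. Nrp1 stood at 1652, 1783 and 1373 normalized counts in GFP control, at 2391, 1398, 1566 and 1820 in GFP defeat, at 1510, 1694, 2051 and 1765 in Setd7 control and at 1756 and 1464 in Setd7 defeat. Nrp2 stood at 3462, 2211 and 2556, at 4252, 3026, 2711 and 2724, at 2796, 3410, 3343 and 2213, and at 3719 and 3020 in the same order. Both were highest in GFP defeat replicate 1, and all groups overlapped. Of the 9 plexins, Plxnd1, a receptor for Sema3e, stood at 717, 1035 and 863 in GFP control, at 752, 587, 664 and 945 in GFP defeat, at 594, 614, 675 and 715 in Setd7 control and at 814 and 616 in Setd7 defeat. GFP control replicate 1 and Setd7 control replicate 4 were nearly equal at 717 and 715. The log2 fold change for Setd7 without defeat was -0.38 ± 0.16 (limma adjusted p = 0.597), and -0.21 without the 3 libraries low in Th and -0.15 without those rich in Tcf7l2. Plxna1, a coreceptor with neuropilins, stood at 6276, 6982 and 8171, at 6765, 7398, 7450 and 8299, at 6855, 6349, 7653 and 7838, and at 6347 and 6761 in the same order. Setd7 defeat lay below GFP defeat, with 6761 against 6765 at the edge, and the log2 fold change was -0.19 ± 0.08 (limma adjusted p = 0.990). Plxna4 ranged from 9268 to 9606 in GFP control and from 10179 to 10868 in Setd7 control, a log2 fold change of 0.16 ± 0.07 (limma adjusted p = 0.611).

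Epha1, an Eph receptor of low level here, had the most negative difference of any guidance gene for Setd7 without defeat and the smallest unadjusted p for the averaged Setd7 effect. It stood at 73.0, 106 and 64.6 normalized counts in GFP control, at 56.8, 39.5, 49.3 and 58.5 in GFP defeat, at 26.2, 40.1, 41.0 and 45.9 in Setd7 control and at 34.1 and 24.6 in Setd7 defeat. Every Setd7 control library lay below every GFP control library, and both Setd7 defeat libraries lay below every GFP defeat library. Means were 81.3 ± 22.1 (SD, n = 3) in GFP control and 38.3 ± 8.45 (n = 4) in Setd7 control, a log2 fold change of -1.04 ± 0.28 (95% interval -1.65 to -0.43; limma adjusted p = 0.539). After defeat it was -0.78 ± 0.32 (limma adjusted p = 0.990), and averaged over defeat -0.91 ± 0.21 (limma adjusted p = 0.686, edgeR 0.645, DESeq2 0.108). For defeat with GFP the log2 fold change was -0.62 ± 0.28 (limma adjusted p = 0.529), and the GFP defeat libraries also lay below the GFP controls.

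The averaged Epha1 difference was -0.87 without the 3 libraries low in Th, -0.86 without the 3 rich in Tcf7l2 and between -1.08 and -0.72 when 1 library at a time was left out. After defeat it was -1.14 without Setd7 defeat replicate 1 and -0.42 without replicate 2. Recovered reads for Epha1 were 21 to 149 per library. The annotated span of the Epha1 gene overlaps those of Zyx and 2010310C07Rik on the opposite strand, and whether their exons overlap was not tested. The strand setting of the counting is not given in the sources used here. Zyx, which encodes a focal adhesion protein, ranged from 998 to 1523 and had a log2 fold change of -0.11 ± 0.11 for Setd7 without defeat (limma adjusted p = 0.833), and 2010310C07Rik stayed at or below 6.43. In all, the spans of 30 of the 68 genes overlap a gene on the opposite strand. Where exons of such a pair overlap, their reads cannot be told apart without strand.

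**Figure D4:**
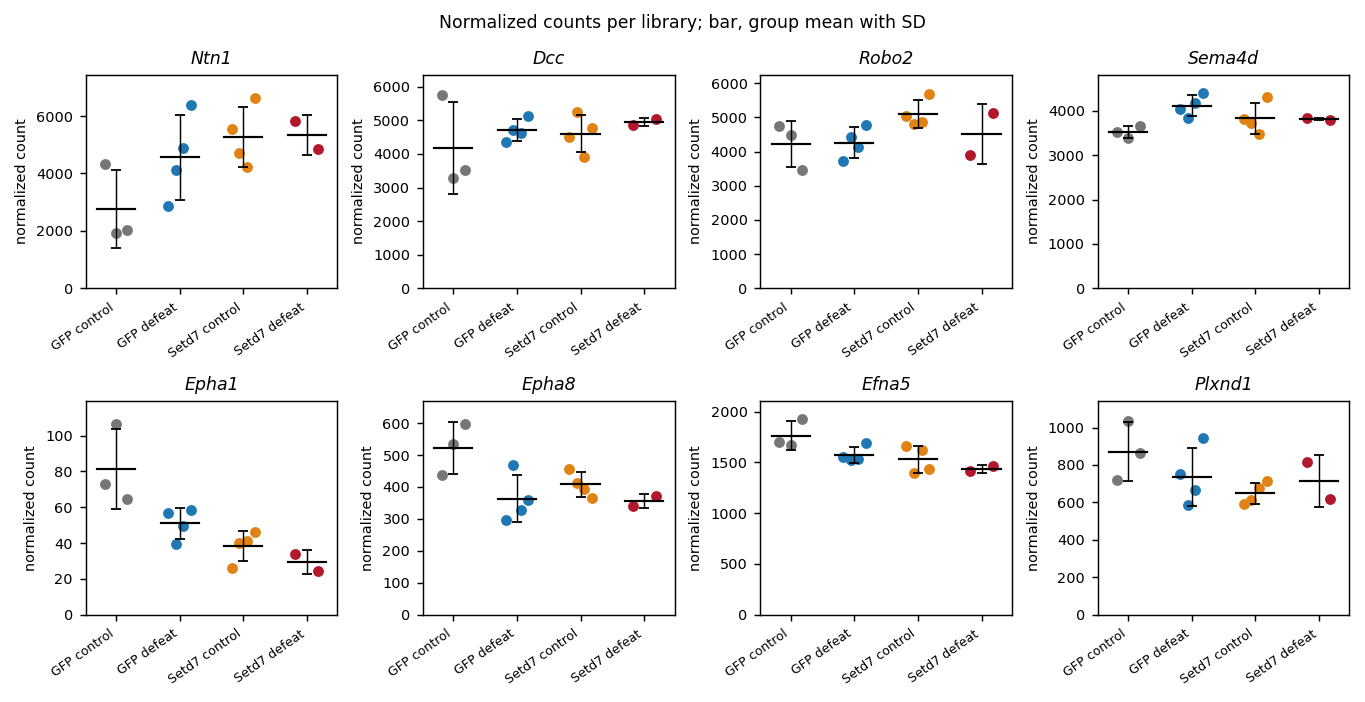
Normalized counts of 8 guidance genes per library (points) with the group mean (bar) and SD (error bar), vertical axes starting at 0. Epha1 lies at or below 45.9 in all 6 Setd7 libraries and at 39.5 or above in all GFP libraries, whereas the Ntn1 groups overlap and its lowest points are 2 GFP controls.

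Epha8 stood at 437, 535 and 598 normalized counts in GFP control, at 298, 470, 328 and 360 in GFP defeat, at 458, 414, 393 and 367 in Setd7 control and at 341 and 371 in Setd7 defeat. GFP control replicate 1 lay inside the GFP defeat range. For defeat with GFP the log2 fold change was -0.53 ± 0.16 (limma adjusted p = 0.397), and -0.06 without the 3 libraries low in Th. Thalamus markers had negative differences for 9 of 10 in that comparison (median -0.62), with sums of 8873 to 39170 in GFP control and 7392 to 20690 in GFP defeat, and none at 0 in either group. Without the 3 libraries rich in Tcf7l2 the Epha8 difference was -0.25. Epha3, a receptor of the ephrin A class, stood at 347, 273 and 282 in GFP control, at 284, 267, 203 and 282 in GFP defeat, at 242, 364, 245 and 234 in Setd7 control and at 362 and 314 in Setd7 defeat. Setd7 defeat lay above GFP defeat, with a log2 fold change of 0.39 ± 0.17 (limma adjusted p = 0.990). Its interaction term was 0.60 ± 0.23 (limma adjusted p = 0.942).

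Epha5, a receptor for ephrin A5 on dopamine axons, stood at 6781, 4435 and 4530 normalized counts in GFP control, at 5246, 6437, 5017 and 6526 in GFP defeat, at 5628, 7258, 4967 and 6355 in Setd7 control and at 6692 and 5966 in Setd7 defeat. It was lowest in the same 2 GFP controls that were lowest for Ntn1 and Dcc. Ephb1 stood at 3634, 2039 and 3599, at 3426, 3338, 3322 and 2465, at 3104, 3481, 2625 and 3277, and at 3116 and 3345 in the same order. Its lowest pair were GFP control replicate 2 and GFP defeat replicate 4, both rich in Tcf7l2, while the other Tcf7l2-rich library, GFP control replicate 3, stood at 3599, near the top. Epha10, an Eph receptor whose kinase domain lacks activity, stood at 2264, 2488 and 2386, at 2249, 2429, 2495 and 2200, at 2510, 1868, 2574 and 2547, and at 2116 and 2081. For defeat with Setd7 it differed by -0.17 ± 0.11 on the log2 scale, within overlapping groups, and by -0.27 without Setd7 control replicate 2 and -0.095 without Setd7 defeat replicate 2.

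On the ligand side, Efna5, a ligand of Epha5 anchored to the membrane by lipid, stood at 1699, 1666 and 1924 normalized counts in GFP control, at 1551, 1526, 1533 and 1686 in GFP defeat, at 1660, 1397, 1625 and 1434 in Setd7 control and at 1411 and 1466 in Setd7 defeat. Both Setd7 groups lay below the GFP group with the same stress history, by 1660 against 1666 at the nearest in the controls. The log2 fold change was -0.20 ± 0.08 without defeat (limma adjusted p = 0.599), -0.13 ± 0.09 after defeat (0.990) and -0.16 ± 0.06 averaged (0.686). The averaged difference was -0.15 without the 3 libraries low in Th. Efnb3, a transmembrane ephrin, stood at 9900, 8183 and 7920 in GFP control, at 8591, 10087, 11126 and 9530 in GFP defeat, at 9809, 9341, 9092 and 8792 in Setd7 control and at 10639 and 10149 in Setd7 defeat. Both Setd7 defeat libraries lay above the Setd7 controls, with log2 fold changes of 0.17 ± 0.10 for defeat with Setd7 and 0.17 ± 0.07 for the averaged defeat effect (limma adjusted p = 0.9999 and 0.922). The averaged effect was 0.079 without the 3 libraries rich in Tcf7l2. The antisense RNA Plxna4os1 stood at 26.1, 26.4 and 39.9 in GFP control, at 26.1, 12.5, 22.3 and 6.05 in GFP defeat, at 36.0, 11.9, 23.7 and 21.4 in Setd7 control and at 18.1 and 10.6 in Setd7 defeat. It rests on 6 to 37 reads per library and overlaps Plxna4.

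Counted over families, Setd7 without defeat gave positive log2 fold changes for 37 of the 68 genes (51.4% of all genes tested) and negative ones for 31, with a median of 0.02 against 0.01 over all genes. All 3 netrins were positive, as were 3 of 4 Robo receptors, while 5 of 7 ephrins were negative. Limma gave an unadjusted p under 0.05 for 9 of 68 (8.01% of all genes tested), edgeR for 8 (8.35%) and DESeq2 for 9 (8.83%). The limma genes were 4 on the higher side (4.31%), Ntn1, Plxna4, Robo2 and the secreted semaphorin Sema3c, and 5 on the lower (3.7%), Efna5, Epha1, Epha8, Plxnd1 and the transmembrane semaphorin Sema6a. The count was 5 without the 3 libraries low in Th (7.46% of all genes in that fit) and 3 without those rich in Tcf7l2 (8.35%). Leaving out 1 library gave 3 (without Setd7 control replicate 4; 5.58%) to 13 (without GFP control replicate 1; 8.95%). The 95% interval lay within 1 on the log2 scale for 62 of 68 genes (76.3% of all genes) and within 0.5 for 45 (54.8%), so for those 62 a log2 fold change of 1 in either direction lies outside the interval. Thalamus markers had negative differences for 10 of 10 in this comparison (median -0.96), with sums of 8873 to 39170 in GFP control and 6608 to 8729 in Setd7 control, where Gbx2 was at 0 in replicate 1. Their part in the differences above was not tested.

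**Figure D5:**
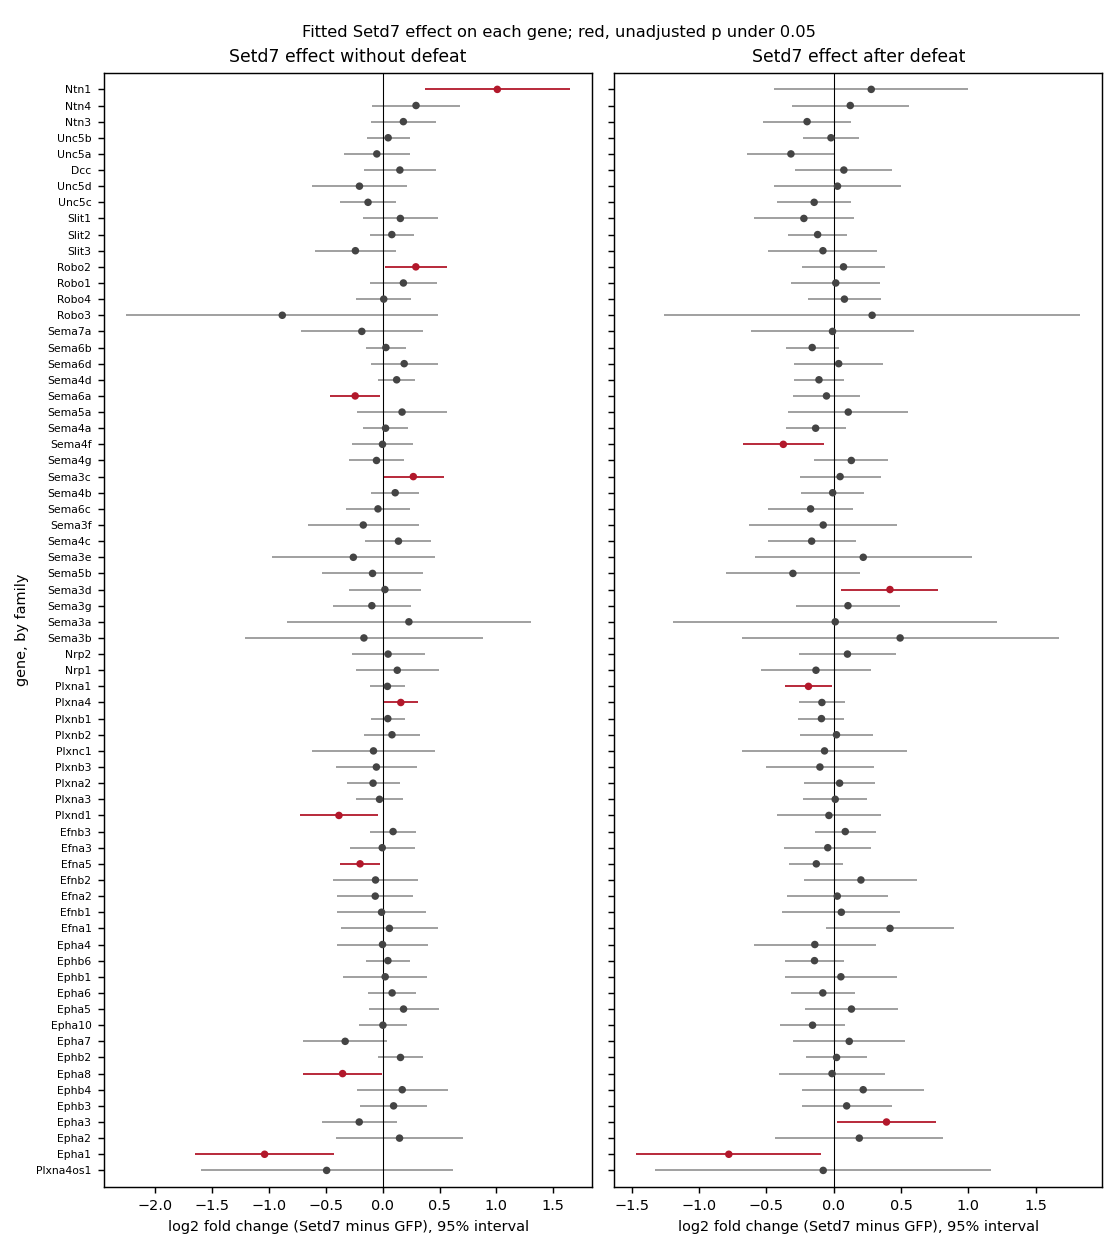
Log2 fold change of each guidance gene (Setd7 minus GFP, points) with its 95% interval (bars) without defeat (left) and after defeat (right), on different horizontal ranges; red marks an unadjusted p under 0.05. Most points lie near 0, Ntn1 lies at 1.01 on the left and 0.28 on the right, and Epha1 lies at -1.04 and -0.78.

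For defeat with GFP, 42 of the 68 log2 fold changes were positive (49.6% of all genes), with a median of 0.07 against -0.00 over all genes. Without the 3 libraries low in Th 30 were positive and the median was -0.05. Unadjusted p was under 0.05 for 7 genes by limma (9.25% of all genes), 5 by edgeR (9.02%) and 6 by DESeq2 (9.4%). Those of limma were 4 on the higher side (4.87%), Ntn1, Sema4d, Slit1 and Slit2, and 3 on the lower (4.38%), Epha1, Epha8 and Robo3. Groups did not overlap for 1 gene on the higher side, Sema4d (4.26%), and for 2 on the lower, Epha1 and Efna2 (4.74%). Efna2, an ephrin A ligand, stood at 323 to 366 in GFP control and 276 to 315 in GFP defeat. The limma count ranged from 3 (without GFP defeat replicate 3; 8.46% of all genes in that fit) to 11 (without GFP defeat replicate 4; 7.22%), and was 11 without the 3 libraries rich in Tcf7l2 (9.75%). This comparison and that of Setd7 without defeat share the GFP control libraries. Intervals lay within 1 for 61 of 68 genes (76.5%) and within 0.5 for 37 (54.3%).

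For Setd7 after defeat, 34 log2 fold changes were positive (50.8% of all genes) and 34 negative, with a median of 0.00. An unadjusted p under 0.05 was reached by 5 genes with limma (4.85% of all genes), 4 with edgeR (4.73%) and 6 with DESeq2 (5.05%). With limma, 2 were on the higher side (2.59%), Epha3 and Sema3d, and 3 on the lower (2.26%), Epha1, Plxna1 and Sema4f. The Setd7 defeat group is 2 libraries, and the column of replicate 1 carries a longer number than its label, so whether it pools animals is not known here. Groups did not overlap for 5 genes on the higher side (7.09%) and 11 on the lower (6.98%). The higher ones were Efna1, Epha2, Epha3, Sema3d and Sema3e. The lower ones were Efna5, Epha1, Epha10, Ephb6, Plxna1, Sema4a, Sema4d, Sema4f, Sema6b, Slit1 and Unc5a. Meningeal fibroblast markers had positive differences for 11 of 11 (median 1.04), with sums of 4695 and 17746 in Setd7 defeat, 3790 to 5067 in GFP defeat and none at 0. Endothelial and mural markers were positive for 8 of 9 (median 0.23), with sums of 17615 and 16638 in Setd7 defeat, 13774 to 14614 in GFP defeat, at most 15433 in any other library and none at 0. The part of either list in these differences was not tested. The limma count was 3 without the 3 libraries low in Th (3.39% of all genes in that fit), 2 without GFP defeat replicate 2 (4.15%) or Setd7 defeat replicate 2 (6.61%), and at most 6 without any other single library. Intervals lay within 1 for 62 of 68 genes (74.1%) and within 0.5 for 41 (52.3%).

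For defeat with Setd7, 35 log2 fold changes were positive (48% of all genes). Intervals lay within 1 for 63 genes (75.1%) and within 0.5 for 40 (54.1%). No guidance gene had an unadjusted p under 0.05 by limma, edgeR or DESeq2 (2.59, 2.61 and 2.7% of all genes). By direction, limma gave 1.45% of all genes higher and 1.13% lower. The guidance count by limma was 4 when Setd7 defeat replicate 2 was left out (6.16% of all genes in that fit). Groups did not overlap for Efnb3 on the higher side (4.18%) and Unc5c on the lower (4.96%). The interaction of Setd7 and defeat had 2 genes with an unadjusted p under 0.05 by each of limma (4.96%), edgeR (4.94%) and DESeq2 (5.27%). By limma these were Epha3 on the higher side (0.60 ± 0.23; 2.51% of all genes) and Plxna4 on the lower (-0.25 ± 0.10; 2.45%). Its intervals were wider, and 22 of 68 lay within 0.5 (36.6%). Plxna4 was at -0.12 without Setd7 defeat replicate 1 and -0.36 without replicate 2. The interaction count was 6 without the 3 libraries low in Th (6.81% of all genes in that fit) and 12 without those rich in Tcf7l2 (8.07%). It ranged from 1 (without Setd7 control replicate 1; 3.65%) to 7 when 1 library was left out, which GFP control replicates 1 and 3, Setd7 control replicate 2 and Setd7 defeat replicate 1 each gave (5.43, 5.95, 5.72 and 7.47%). The averaged Setd7 effect gave 3 by each tool (7.12, 7.47 and 7.87% of all genes by limma, edgeR and DESeq2), with Ntn1 higher (3.7%) and Efna5 and Epha1 lower (3.42%) by limma. It gave 13 without GFP control replicate 1 (9.32% of all genes in that fit) and 5 without the 3 libraries low in Th (4.76%). The averaged defeat effect also gave 3 (5.18, 5.09 and 5.37%), with Efnb3 higher (2.34%) and Epha1 and Epha8 lower (2.83%) by limma, and 8 when replicate 1 of GFP control (6.40%) or of GFP defeat (6.18%) was left out.

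Between the 6 female and 7 male libraries, 8 guidance genes had an unadjusted p under 0.05 by limma (3.87% of all genes), 7 by edgeR (3.9%) and 8 by DESeq2 (4.08%). In females Slit2 (0.24 ± 0.06), Sema3d (0.36 ± 0.11), Nrp2 (0.35 ± 0.11) and Epha3 (0.26 ± 0.11) were on the higher side (2.06% of all genes), as log2 female minus male with group in the fit. On the lower side (1.81%) were Plxna1 (-0.19 ± 0.05), Ephb3 (-0.26 ± 0.10), Sema4g (-0.20 ± 0.08) and Ephb6 (-0.14 ± 0.06). Limma adjusted p was 0.999 for all 8. Both GFP control males are libraries low in Th and rich in Tcf7l2, and thalamus markers had negative differences for 10 of 10 in this comparison (median -0.64). The count was 4 without the 3 libraries low in Th (3.44% of all genes in that fit), 3 without those rich in Tcf7l2 (3.86%) and 12 without GFP control replicate 3 (4.60%). It was 5 without GFP defeat replicate 2, Setd7 control replicate 2 or Setd7 control replicate 3 (3.73, 2.65 and 3.36%). Without the low-Th libraries Slit2 differed by 0.14, Nrp2 by 0.20, Ephb3 by -0.15 and Ephb6 by -0.096. In that fit Sema3d differed by 0.24, Epha3 by 0.24 and Sema4g by -0.24, the last larger than in the main fit. Without the Tcf7l2-rich ones Slit2 differed by 0.15, Nrp2 by 0.28, Ephb3 by -0.16 and Ephb6 by -0.074. Plxna1 was then at -0.15, and Epha3 was larger, at 0.32.

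Other genes of guidance signalling were taken as lists of 25 co-receptors and further ligands and 47 cytoplasmic signalling genes, and none passed the adjusted threshold in any comparison by limma or edgeR, nor by DESeq2 where it gave an adjusted p (it gave none for Fes, Cxcr4 and Draxin for Setd7 without defeat). Among the co-receptors and ligands, limma gave an unadjusted p under 0.05 for 0 genes for Setd7 without defeat, 2 higher for defeat with GFP, 1 higher and 1 lower for Setd7 after defeat and 1 higher for defeat with Setd7. Over all tested genes the shares in these comparisons were 8.01, 9.25, 4.85 and 2.59%. Ptch1, the Hedgehog receptor, differed by 0.27 ± 0.07 on the log2 scale for defeat with GFP (limma adjusted p = 0.365), and by 0.15 without the 3 libraries low in Th. Cxcl12, a chemokine that guides neurons, differed by 0.23 ± 0.08 for Setd7 after defeat and by 0.29 ± 0.08 for defeat with Setd7 (limma adjusted p = 0.990 and 0.9999). Both comparisons rest on the 2 Setd7 defeat libraries, in which the endothelial and mural marker sums were highest of all 13 and the fibroblast sum was 17746 in replicate 1. The part of these markers in the Cxcl12 difference was not tested. Among the cytoplasmic genes the numbers were 2 higher and 1 lower, 3 higher and 2 lower, 1 higher, and 0, in the same order of comparisons, to be read against the same shares of all genes. Rnd1, a small GTPase that binds plexins, differed by 0.34 ± 0.10 for Setd7 without defeat and by 0.37 ± 0.10 for defeat with GFP (limma adjusted p = 0.539 and 0.374). Rgs3, which couples ephrin B to G proteins, differed by -0.25 ± 0.08 for Setd7 without defeat, and Dpysl5, a collapsin response mediator, by 0.37 ± 0.12 for defeat with GFP. Without the Tcf7l2-rich libraries Rgs3 was at -0.092 and Dpysl5 at 0.18, and without GFP control replicate 3 alone Dpysl5 was at 0.20. Rnd1 went the other way, to 0.49 for defeat with GFP without the Tcf7l2-rich libraries. For Setd7 without defeat Rnd1 was at 0.41 without the 3 libraries low in Th. Rhoa, the GTPase downstream of repulsive receptors, differed by 0.24 ± 0.11 for Setd7 after defeat. The list medians lay between -0.01 and 0.06 in these 4 comparisons, against -0.01 to 0.01 over all genes.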

How the data were processed

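RNA-seq of ventral tegmental area punches from 13 libraries was used. Per the submitters' processing notes the reads went through Bowtie2, featureCounts and DESeq2 on build GRCm39, with no versions given. The table the authors deposited holds a signal per gene, which is read counts divided by a size factor of the library. All 341432 values came out as whole reads (within 0.01) after multiplying back, giving 26.5 to 50.8 M (mega) reads per library.

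The main test was limma 3.58.1 in R 4.3.3, with trend, on log2(normalized count + 1) for 17755 genes with at least 10 normalized counts in at least 2 libraries (8509 were left out). The model held the 4 groups and sex, with 2-sided p-values adjusted by Benjamini-Hochberg over all tested genes at 0.05 in 8 comparisons. Fold changes are on this scale, where the added 1 shrinks the ratio of 2 low counts. edgeR 4.0.16 (quasi-likelihood) and DESeq2 1.42.0 on the recovered reads were alternatives, with other pseudocounts, filters, scalings, models and left-out libraries. The limma script was tested on simulated data. Named genes were 17 fixed ones, those with the smallest p and those with the largest spread. The smallest p were taken in each direction of Setd7 without defeat, defeat with GFP, Setd7 after defeat and defeat with Setd7. The genes and lists were chosen with earlier results of these data known. Lengths, overlaps and promoters came from GENCODE M21 and RefSeq, both on GRCm38, and were matched by symbol only.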

Additional observations from a re-analysis of the deposited data

Results flagged for a closer look

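Among the named genes, each group of 4 libraries was searched for a library whose distance to its nearest neighbour divided by the group's range exceeded Dixon's critical value. Chance gives about 1 in 20 groups. Of 58 groups tested 7 held such a library, but some of these genes were named for their spread or small p, so their count cannot be set against that share. Over all 68 guidance genes 10 of 136 groups held one (7.35%), and over all tested genes 6.36% did. In GFP defeat, Robo3 stood at 99.4 normalized counts in replicate 1 against 12.5 to 25.2 in the others. Efna5 stood at 1686 in replicate 4 (1526 to 1551 in the others), Ephb1 at 2465 in replicate 4 (3322 to 3426) and Sema3f at 522 in replicate 2 (683 to 684). In Setd7 control, replicate 2 was apart for Epha3 at 364 (234 to 245) and for Epha10 at 1868 (2510 to 2574). Slit2 stood at 2547 in replicate 4 of that group (3116 to 3152).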

How the results depend on the processing

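No guidance gene that was given an adjusted p passed the threshold under any of the 13 alternative settings or the 13 fits that left out 1 library. Without the 3 libraries low in Th, differences that turned sign were Dcc (-0.30) and Lingo1 (0.12) for Setd7 without defeat, and Dcc (-0.22), Slit1 (-0.14) and Slit2 (-0.031) for defeat with GFP. Without the 3 rich in Tcf7l2 they were Dcc (-0.30) and Lingo1 (0.14) for Setd7 without defeat, Dcc (-0.31), Ntn1 (-0.20) and Slit1 (-0.062) for defeat with GFP, and the Ntn1 interaction (0.23). In both of these fits GFP control is replicate 1 alone, so the turns in sign rest on that library. The Epha1 interaction ranged from -0.12 (without Setd7 defeat replicate 1) to 0.60 (without Setd7 defeat replicate 2). The cause was not tested. Of the other values for single guidance genes, 1134 kept their direction. They also kept their side of the threshold, which adds little because no guidance gene passed it in the main fit. DESeq2 gave no adjusted p for 6 guidance genes for Setd7 without defeat, Epha1 among them, and for 1 for defeat with GFP. Depth limits Epha1, Robo3 and Plxna4os1, which had as few as 21, 12 and 6 reads in a library. No paired analysis was possible because the labels give the groups no shared replicate numbers.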
